A study of Mus musculus with 57 samples.

Results

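The transcripts described here encode FGF receptors, FGF ligands and the genes that FGF signalling switches on, measured in astroglia of the mouse cerebral cortex between birth and adulthood. They are 10 genes chosen by symbol from the 21118 rows of a count table, namely the receptors Fgfr1, Fgfr2 and Fgfr3, the ligands Fgf1 and Fgf2, the inhibitors Spry1, Spry2 and Spry4, and the transcription factors Etv4 and Etv5. They were picked by name and not by a threshold on a value, though with earlier results of these data known, and all 10 passed the filter on low counts. Messenger RNA on ribosomes was pulled down from whole cortex through a GFP-tagged ribosomal protein (translating ribosome affinity purification, TRAP), and 53 libraries were sequenced, 1 for each mouse. All mice carried the Aldh1l1-L10-GFP transgene on a C57BL/6 background, so that the promoter of the astroglial gene Aldh1l1 set which cells were tagged, and all groups share that transgene. The groups were 4 females and 4 males at P1 (postnatal day 1), 4 and 4 at P4, then 8 and 4 (P7), 5 and 5 (P14) and 3 and 3 (P35), with 4 females and 5 males labelled adult.

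FGF ligands bind receptor tyrosine kinases together with heparan sulfate, and the activated receptor signals through RAS and the kinases RAF, MEK and ERK. ERK activity induces the ETS transcription factors Etv4 and Etv5 and the Sprouty genes, whose proteins damp the same pathway, so that these transcripts are widely used as a readout of FGF signalling. In the mouse forebrain Fgfr3 is known as a marker of astrocytes and their progenitors, Fgf1 and Fgf2 are ligands without a classical secretion signal, and Spry1, Spry2 and Spry4 are feedback inhibitors of receptor tyrosine kinases in general.

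Each replicate number in the titles recurs across groups, and the first digit of it was taken as a replicate set (sets 1, 2, 3, 4 and 6, and a set S for the 4 P7 animals of the second sequencing run alone). Levels are in CPM, counts relative to library sizes scaled by the trimmed mean of M values (TMM), and differences are on the log2 scale, where 1 stands for a 2-fold difference, fitted once to all 53 libraries with terms for the 12 groups and the replicate set. Total counts ranged from 14768178 to 48541139 per library, with a median of 24033399. Aldh1l1 itself was read in every library, at 10.1 to 422 CPM. Neuronal transcripts were as high as astrocyte ones in many libraries, with a mean log2 CPM over 12 neuronal markers of 6.03 to 9.28, against 4.94 to 9.77 over 12 mature astrocyte markers, so the libraries also held neuronal transcripts.

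Several libraries stood apart or went against their labels. P1 female 4 had only 10085 genes with 10 or more counts, against a median of 16873, and had no count of Fgf1 or Fgf2. P7 female 40 and P14 male 4 were the other libraries with the fewest genes. P1 female 1 had the highest astrocyte marker level at P1, 7.82 against a median of 5.53. P7 male 6 and P14 male 6 each had myelin and cell cycle marker levels within the range of the other's age. In 7 libraries, 4 labelled male and 3 labelled female, the female transcript Xist and the summed Y-linked transcripts were in the order of the other sex. Without those 7 libraries, the calls of age, of adult minus P1 and of the steps given below were the same genes. Calls without the other sets are given beside the results where they differ.

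Across the 6 ages, 7 of the 10 genes differed in level (edgeR quasi-likelihood F test, Benjamini-Hochberg adjusted p under 0.05), namely Fgfr1, Fgfr3, Fgf1, Fgf2, Spry1, Spry2 and Etv4. The same test called 43.5% of all 21118 genes. Among genes with a mean of at least 1 CPM it called 7917 of 15492, a larger share. Without the 3 libraries with the fewest genes it also called 7, with Fgfr2 in place of Spry2, and without the replicate set it called 4 (Fgfr3, Fgf1, Fgf2 and Spry1). Over all genes those fits called 11277 of 21043 and 6135 of 21118, against 9190 of 21118 in the main fit. Between adults and P1, 6 genes were higher in adults (Fgfr1, Fgfr3, Fgf1, Fgf2, Spry2 and Etv5), 1 was lower (Spry1) and 3 did not pass (Fgfr2, Spry4 and Etv4). Of all genes, 21.8% were called higher and 19.5% lower in adults, 41.3% in all, and the share among the 10 is read against that. With only genes of at least 1 CPM on average, the share was again larger, at 7654 of 15492. The median difference over the 10 genes was 0.85, beside 0.06 over all genes tested. The 5 steps between neighbouring ages gave 2 calls among the members, Fgf1 for P4 minus P1 and Fgfr3 for P14 minus P7. All samples of the second sequencing run were P7, so the steps into and out of P7 also compare runs in part. These steps called 0.44% of all genes for P4 minus P1, 1.67% for P7 minus P4, 3.3% for P14 minus P7 and 1.15% for P35 minus P14. For adult minus P35 edgeR called 0 of all genes, with 884 at an unadjusted p under 0.05, limma voom called 0 and DESeq2 114. In bulk libraries such as these, fewer cells of a type and less RNA per cell cannot be told apart, and the same holds for every level below.

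**Figure D1:**
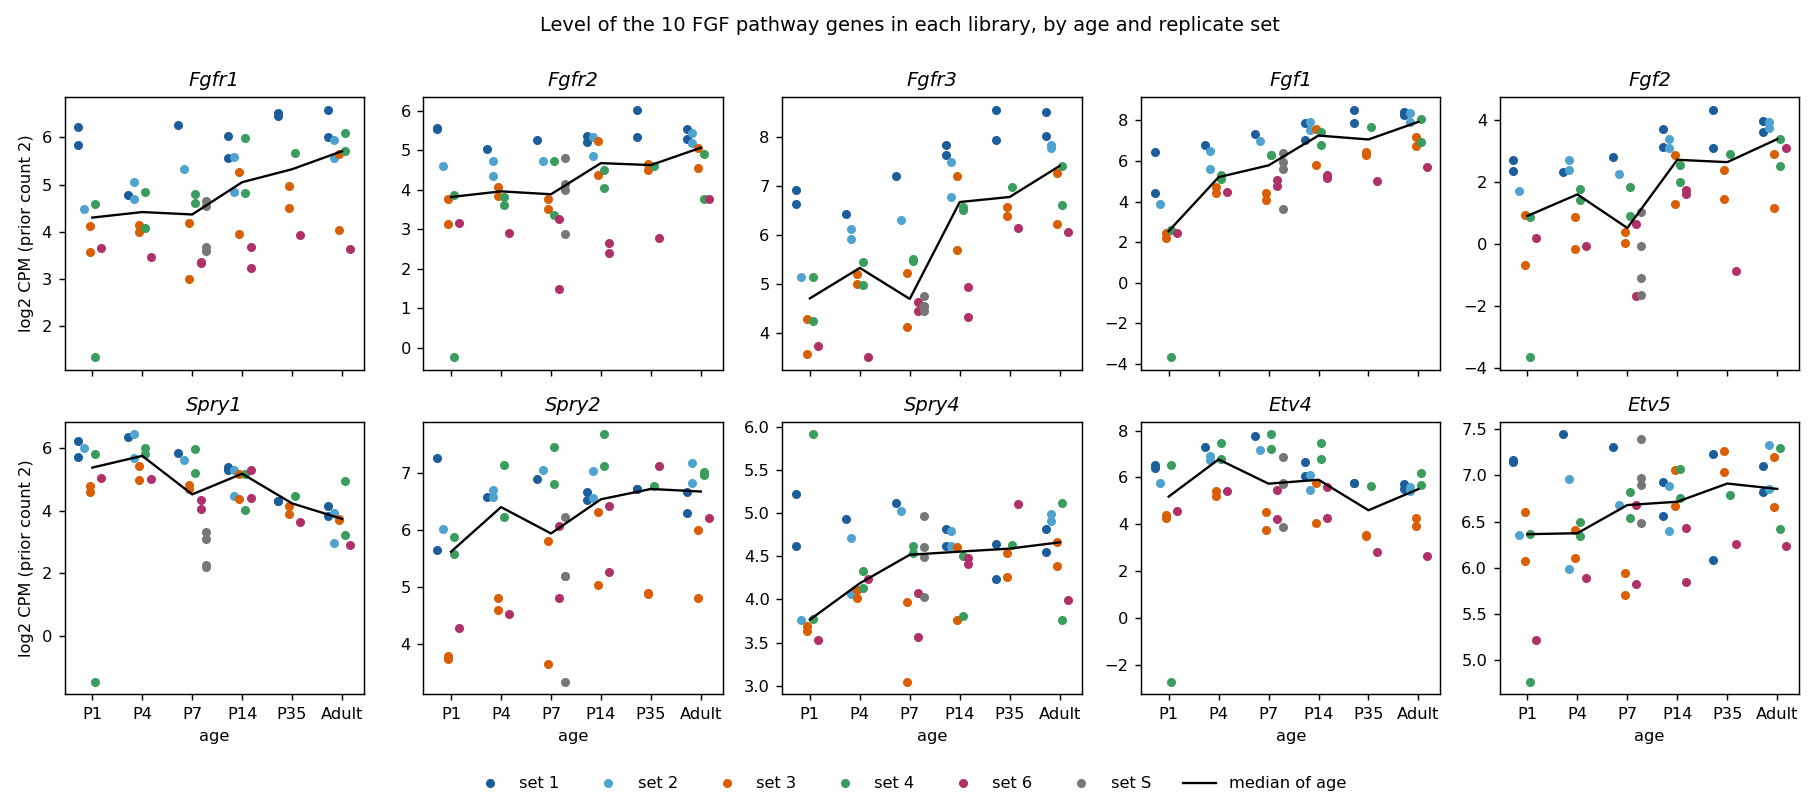
Level of each of the 10 genes (log2 CPM with a prior count of 2, vertical axis) in each of the 53 libraries by age (horizontal axis), coloured by replicate set, with the black line through the median of each age. By median, Fgf1 and Fgfr3 are highest in adults and Spry1 is lowest there, though single libraries of other ages lie beyond the adults. Within an age the libraries of set 1 mostly lie above those of sets 3 and 6.

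Promoter sequences are shown for 4 of the genes called between adults and P1, the receptor Fgfr3, the ligand Fgf2 and the inhibitors Spry1 and Spry2, which lie on opposite sides of that comparison. Fgf1, with the largest difference, had no promoter in the sequence table. The sequences cover 250 bases before to 50 bases after the annotated start, read 5′ to 3′ on the gene's own strand from RefSeq (GRCm38.p6), and for Fgfr3 the first of its 2 starts is shown. Capitals mark GGAA, the core letters bound by ETS factors such as Etv4 and Etv5, on either strand (TTCC on the strand shown).
Fgfr3, chr5:33721474-33721773, plus strand: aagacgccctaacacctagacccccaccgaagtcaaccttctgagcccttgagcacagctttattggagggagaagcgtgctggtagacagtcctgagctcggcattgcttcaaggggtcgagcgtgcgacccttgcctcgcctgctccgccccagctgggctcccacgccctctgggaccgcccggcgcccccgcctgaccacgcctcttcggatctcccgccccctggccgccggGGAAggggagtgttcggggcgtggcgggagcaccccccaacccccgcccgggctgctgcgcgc
Fgf2, chr3:37348403-37348702, plus strand: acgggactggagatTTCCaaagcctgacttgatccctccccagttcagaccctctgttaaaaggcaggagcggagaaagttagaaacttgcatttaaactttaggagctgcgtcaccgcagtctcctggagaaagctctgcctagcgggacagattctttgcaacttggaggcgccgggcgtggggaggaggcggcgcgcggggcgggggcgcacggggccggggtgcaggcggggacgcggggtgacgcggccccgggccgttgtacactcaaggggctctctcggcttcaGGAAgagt
Spry1, chr3:37639697-37639996, plus strand: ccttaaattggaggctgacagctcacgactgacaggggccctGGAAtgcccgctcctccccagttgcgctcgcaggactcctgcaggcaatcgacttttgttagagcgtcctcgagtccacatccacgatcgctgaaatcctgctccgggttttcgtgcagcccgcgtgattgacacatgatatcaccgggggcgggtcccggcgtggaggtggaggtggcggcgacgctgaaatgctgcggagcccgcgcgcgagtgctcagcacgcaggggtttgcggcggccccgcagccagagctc
Spry2, chr14:105896770-105897069, minus strand: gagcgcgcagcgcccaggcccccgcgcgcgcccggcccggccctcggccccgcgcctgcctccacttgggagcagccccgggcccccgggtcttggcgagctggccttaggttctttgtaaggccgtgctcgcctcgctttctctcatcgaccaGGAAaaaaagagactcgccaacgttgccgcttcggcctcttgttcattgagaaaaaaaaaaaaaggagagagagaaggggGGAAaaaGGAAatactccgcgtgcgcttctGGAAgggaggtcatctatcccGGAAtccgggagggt
Fgf2 and Spry1 both lie on chromosome 3 and are read in the same orientation. GGAA on either strand occurred 5 times in the Spry2 promoter, 2 times in that of Fgf2 and 1 time each in those of Spry1 and Fgfr3 shown here. At the other annotated Fgfr3 start it occurred 5 times, so the count for Fgfr3 depends on the start chosen. These letters are common, since 96.0% of 32851 mouse promoters of the same length held at least 1 match, with a median of 3, and 28.6% held 5 or more. The longer motif AGGAAG, which contains GGAA, occurred in the Fgf2 promoter alone among these 4 (1 match) and in 35.4% of all promoters. Of the 10 genes, 6 had a promoter in the sequence table.

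Among the receptors, Fgfr3 changed most with age. Fgfr3 (chromosome 5, a receptor of astrocytes and their progenitors) stood at 67.1 CPM in the lowest, 170 CPM in the median and 363 CPM in the highest adult library, against 11.8, 27.2 and 122 CPM at P1. Of the 9 adult libraries, 6 lay above every P1 library. The adult minus P1 difference was 2.23 ± 0.22 (SE, adjusted p = 4.42e-11), and it was positive within each of the 5 replicate sets that hold both ages, between 1.49 and 2.81. Median levels were 27.2 CPM at P1, then 40.2 (P4), 25.8 (P7), 102 (P14), 111 (P35) and 170 CPM (adult). The ranges of neighbouring ages overlapped, and only the step from P7 to P14 passed the test, with P14 minus P7 at 0.90 ± 0.21 (adjusted p = 0.0124), in a step that called 3.3% of all genes. That call was lost without the single library P7 male 2, where the difference was 0.90 with an adjusted p of 0.0764, and without the 5 libraries whose description carries the letter of the other sex, where it was 0.76 (adjusted p = 0.108). P7 male 2 was sequenced in both runs, and age and run cannot be told apart in full in this step. Set beside the astrocyte markers of the same library, the log2 level of Fgfr3 minus the mean log2 of the 12 markers had a median of -1.53 in adults and -0.89 at P1, which is the other direction. The astrocyte markers themselves were higher in adults in 11 of 12 cases, with a median difference of 2.37. On this relative scale, which was not tested, the medians of the other genes called higher were also lower in adults than at P1, except for Fgf1. They were -3.33 in adults and -1.41 at P1 for Fgfr1, -5.91 and -4.91 for Fgf2, -2.47 and -0.61 for Spry2, and -2.17 and 0.30 for Etv5.

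Fgfr1, a receptor that neurons and glia share, stood at 12.3, 52.1 and 96.1 CPM (lowest, median, highest) in adults, against 2.46, 19.8 and 74.6 CPM at P1. Only 1 adult library exceeded the highest P1 library, so the groups overlapped broadly. Adult minus P1 was 0.99 ± 0.31 (adjusted p = 0.00885), and positive in 4 of 5 replicate sets. No single step passed for Fgfr1, whose median was 19.8 CPM at P1, then 21.7 (P4), 20.7 (P7), 33.4 (P14), 41.2 (P35) and 52.1 CPM (adult). Without the replicate set in the model, the difference was 0.94 with an adjusted p of 0.143.

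Fgfr2, a receptor that oligodendrocytes are also known to express, had 13.5, 33.3 and 46.3 CPM in adults, against 0.773, 14.0 and 47.2 CPM at P1. The highest library of either age was at about the same level. The difference was 0.71 ± 0.31 with an adjusted p of 0.0641, and its interval of 2 SE ran from 0.09 to 1.34. Over the 53 fits that each left out 1 library, the difference ran from 0.49 to 0.89 and the adjusted p from 0.0292 to 0.138. The threshold was passed when any of 3 P1 libraries was left out, at 0.83 without P1 female 1 (adjusted p = 0.0435), 0.89 without P1 female 6 (adjusted p = 0.0292) and 0.80 without P1 male 1 (at the threshold after rounding). It was also passed with DESeq2 (0.76, adjusted p = 0.0282), limma voom (0.75, adjusted p = 0.0243), DESeq2 size factors in edgeR (0.76, adjusted p = 0.0484) and the 6 ages without the sex term (0.77, adjusted p = 0.0406). With the neuronal marker level as a term the difference was 1.96 (adjusted p = 0.00189). Oligodendrocyte markers moved the same way over these ages, with all 8 higher in adults and a median level of 5.30 in adults and 1.36 at P1, and their part in the Fgfr2 level was not tested.

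The make-up of the receptor transcripts was compared on CPM per kilobase of exon, which sets genes of different length on 1 scale. Fgfr3 held 74.6% ± 4.2 (SD, n = 9) of the sum of the 3 receptors in adults and 56.3% ± 14.4 (SD, n = 8) at P1, a difference of 18.3 percentage points (exact permutation test, two-sided p = 0.00403, adjusted over 3 receptors 0.00971). The permutations for these shares exchange libraries freely and do not take the replicate set into account, unlike the fitted differences. Fgfr1 made up 15.7% ± 4.9 in adults and 25.6% ± 8.0 at P1 (exact permutation p = 0.00971). Fgfr2 made up 9.66% ± 2.93 in adults and 18.0% ± 7.1 at P1 (exact permutation p = 0.00765). The Fgfr3 share was higher in adults within 4 of 5 replicate sets and 3.40 points lower in set 4, where P1 female 4 had 89.0%. Without that library, left out after seeing the data, the P1 mean was 51.7% and set 4 gave 13.0 points in the direction of the others. The difference was then 23.0 points (exact permutation p = 0.000175, the smallest that 9 against 7 libraries can give). Without P1 female 1 instead it was 19.2 points (exact permutation p = 0.00437), and set 4 stayed 3.40 points lower. The median Fgfr3 share was 52.5% at P1, then 60.4% (P4), 61.3% (P7), 73.2% (P14), 72.2% (P35) and 74.5% (adult). By then all 9 adult libraries held at least 67.6%, above 7 of the 8 P1 libraries.

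**Figure D2:**
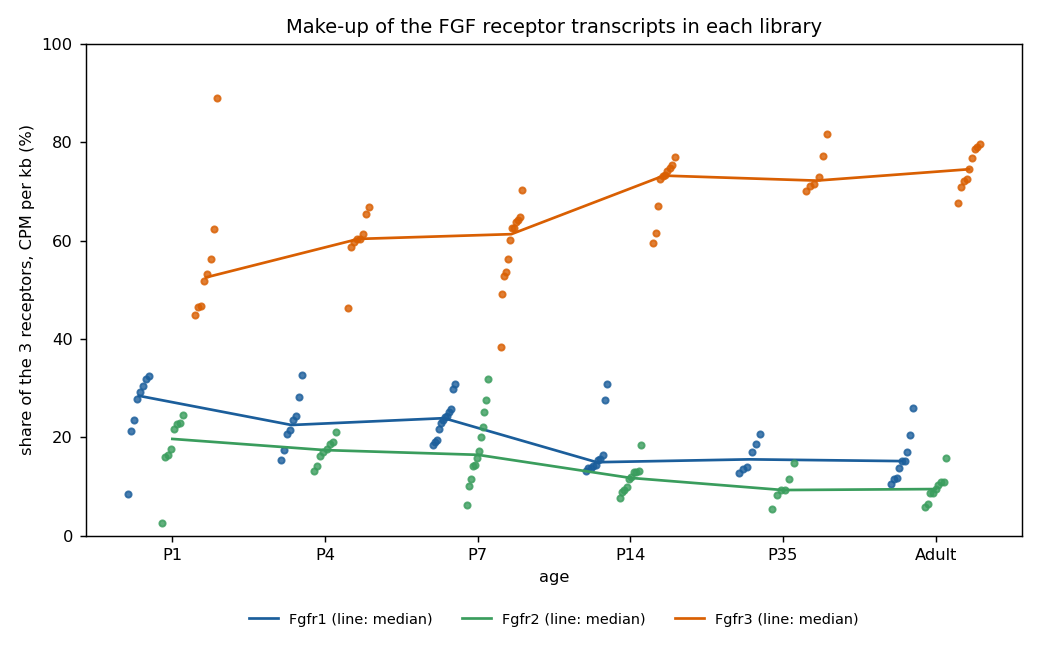
Share of each receptor in the summed level of Fgfr1, Fgfr2 and Fgfr3 (CPM per kilobase, %, vertical axis) in each library by age (horizontal axis), with lines through the medians. The Fgfr3 share has a median of 74.5% in adults and 52.5% at P1, and the single P1 library at 89.0% is P1 female 4.

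Fgf1 showed the largest difference of the 10 genes. This ligand, which binds all FGF receptors, stood at 51.1, 242 and 336 CPM (lowest, median, highest) in adults, against 0, 5.75 and 85.9 CPM at P1. All but 1 of the 9 adult libraries lay above the highest P1 library, and without P1 female 1 the ranges did not overlap. Adult minus P1 was 3.98 ± 0.46 (adjusted p = 2.47e-09), and within the 5 replicate sets it ran from 2.90 in set 1 to 8.03 in set 4, which holds the P1 library without a count. The median was 5.75 CPM at P1, then 36.7 (P4), 55.3 (P7), 153 (P14), 145 (P35) and 242 CPM (adult).

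Fgf1 was also the member that had changed by P4. Its P4 libraries had 21.0 to 111 CPM, against 0 to 85.9 CPM at P1, and the lowest P4 library was close to the next highest P1 library, at 21.2 CPM. P4 minus P1 was 2.00 ± 0.43 (adjusted p = 0.0207), in a step that called 0.44% of all genes. The call depended on single libraries: it was lost without P1 female 3 (1.88, adjusted p = 0.0557), P1 male 4 (1.94, adjusted p = 0.0638), P4 female 6 (1.84, adjusted p = 0.0634) or P4 male 1 (2.00, adjusted p = 0.0575). It was also lost without the replicate set (1.45, adjusted p = 1) and with S1 placed in set 1 and S2 in set 2 (1.96, adjusted p = 0.0835). Relative to the astrocyte markers of the same library, the median Fgf1 level stood at -2.87 log2 units at P1, then -1.52 (P4), -1.04 (P7), -1.31 (P14), -1.32 (P35) and -1.28 (adult).

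Fgf2, a ligand and mitogen of neural progenitors, was the scarcest member, with 2.17, 10.3 and 15.4 CPM in adults and 0, 1.79 and 6.39 CPM at P1. Of the adult libraries, 7 of 9 exceeded the highest P1 library. Adult minus P1 was 2.06 ± 0.46 (adjusted p = 0.000317) and positive in all 5 sets, from 1.25 to 4.34. The median was 1.79 CPM at P1, then 2.97 (P4), 1.35 (P7), 6.52 (P14), 6.24 (P35) and 10.3 CPM (adult), and no step between neighbours passed.

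**Figure D3:**
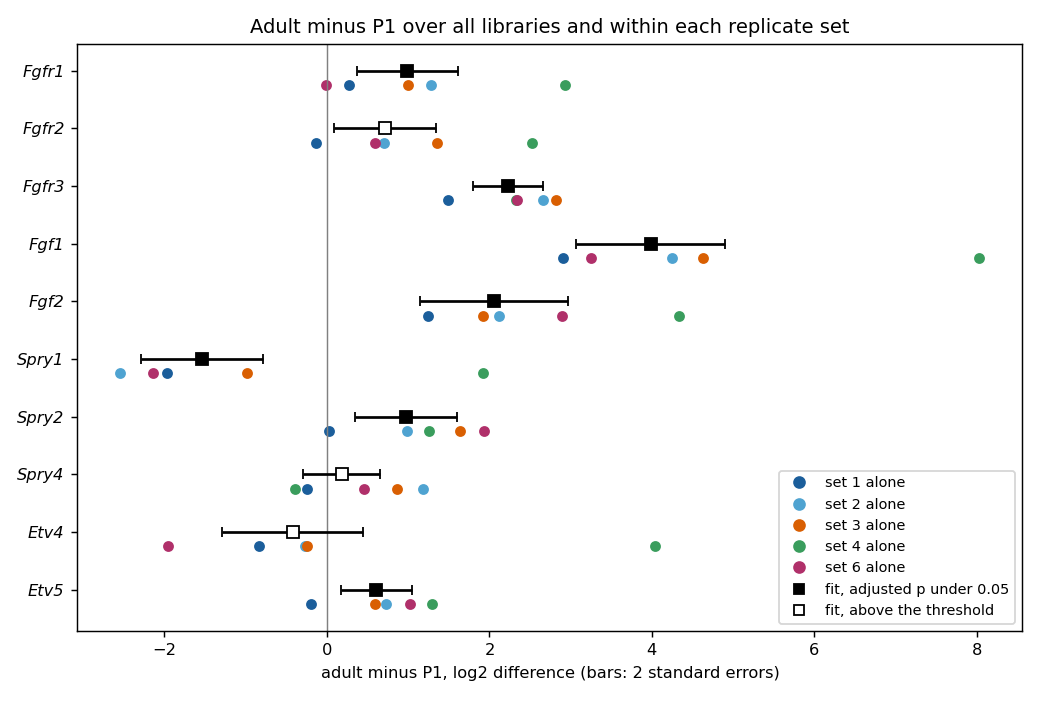
Adult minus P1 difference (log2, horizontal axis) of each gene, as the fit over all libraries (squares, bars of 2 standard errors) and within each replicate set alone (circles). Fgfr3, Fgf1, Fgf2 and Spry2 are above 0 in all 5 sets, and Spry1 is below 0 in 4 of 5, with set 4 on the other side.

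In CPM the 3 Sprouty inhibitors took different courses. Relative to the astrocyte markers of the same library, a scale that was not tested, the medians of all 3 were lower in adults. They were -5.32 in adults and -0.51 at P1 for Spry1, -2.47 and -0.61 for Spry2, and -4.32 and -1.80 for Spry4. Spry1 stood at 7.40, 13.2 and 31.0 CPM (lowest, median, highest) in adults, against 0.281, 42.4 and 74.6 CPM at P1. Adult minus P1 was -1.54 ± 0.38 (adjusted p = 0.000974), and Spry1 was the only one of the 10 called lower. Its median was 42.4 CPM at P1, then 53.6 (P4), 23.0 (P7), 36.1 (P14), 18.7 (P35) and 13.2 CPM (adult), with overlapping ranges at every step and no step past the threshold. The direction held in 4 of 5 replicate sets, where the differences lay between -0.98 and -2.54. Set 4 gave 1.92, from 9.22 and 31.0 CPM in adult female 4 and adult male 4, against 0.281 and 55.8 CPM in P1 female 4 and P1 male 4. With the neuronal marker level of each library as a further term, the Spry1 difference was 0.13 (adjusted p = 0.903), so its direction depends on that term.

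Spry2 stood at 27.9, 103 and 145 CPM in adults, against 13.3, 49.3 and 154 CPM at P1. No adult library exceeded the highest at P1, which was P1 female 1. The difference was 0.98 ± 0.31 (adjusted p = 0.0111), and on the mean of log2 levels it was positive in all 5 sets, by only 0.03 in set 1. In set 1 the mean CPM was lower in adults, at 90.7 CPM in adults and 102 CPM at P1. Its median was 49.3 CPM at P1, then 85.4 (P4), 61.7 (P7), 93.3 (P14), 106 (P35) and 103 CPM (adult). Without the replicate set in the model the difference was 0.85 with an adjusted p of 0.21.

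Spry4 stood at 13.5, 25.2 and 34.7 CPM in adults, against 11.5, 13.5 and 60.0 CPM at P1, and did not pass (0.18 ± 0.24, adjusted p = 0.574, interval of 2 SE from -0.29 to 0.65). Its highest P1 library was P1 female 4, the one that was lowest in Fgfr1, Fgfr2, Fgf1, Fgf2, Spry1, Etv4 and Etv5. Without P1 female 1 and P1 female 4 the difference was 0.68 with an adjusted p of 0.0128. The medians of Spry4 at the 6 ages lay between 13.5 and 25.2 CPM.

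Etv4 differed between ages (adjusted p = 0.00812 over the 6 ages) without an adult minus P1 difference past the threshold. Its median was 39.4 CPM at P1, then 109 (P4), 53.2 (P7), 60.1 (P14), 30.9 (P35) and 45.3 CPM (adult). By median the level was highest at P4, where every library had at least 37.2 CPM and the highest 176 CPM. At P7 the libraries spread from 13.6 to 229 CPM, the widest span in CPM of any age. Adults had 6.10 to 73.4 CPM, against 0.0703 to 93.3 CPM at P1, and the difference was -0.42 ± 0.43 (adjusted p = 0.459). Its sign turned to 0.31 (adjusted p = 0.653) with limma voom and to 1.60 (adjusted p = 0.0755) with the neuronal marker level as a term. The largest step was P35 minus P14, at -1.33 ± 0.48 (adjusted p = 0.173), which passed when the 3 libraries with the fewest genes were left out. Relative to the astrocyte markers of the same library, the median of Etv4 was -3.87 in adults and -0.86 at P1, which was not tested.

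Etv5 had 75.2, 116 and 161 CPM in adults, against 27.1, 82.3 and 143 CPM at P1. Its difference was 0.61 ± 0.22 (adjusted p = 0.0217), the smallest of those called. It was lost without the 3 libraries with the fewest genes (0.45, adjusted p = 0.0664), without P1 female 4 alone (0.46, adjusted p = 0.0682) or adult female 3 (0.49, adjusted p = 0.0835), and without the replicate set (0.53, adjusted p = 0.128). Over all 6 ages Etv5 did not pass (adjusted p = 0.168), and its medians lay between 82.3 and 121 CPM. The pair of ETS factors therefore differed in range: Etv4 spanned medians from 30.9 to 109 CPM over the same libraries.

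On CPM per kilobase, the genes could also be ranked against each other by median. Spry2 ranked first at every age, with 49.1 in adults and 23.6 at P1. Fgf2 ranked last at every age, with 1.52 in adults and 0.264 at P1. The place of Fgf1 moved most, with rank 9 at P1, then 5 (P4), 4 (P7), 2 (P14), 3 (P35) and 2 (adult). Its median level per kilobase was 44.3 in adults, against 1.05 at P1. Spry1 stood at rank 3 at P1 and rank 8 in adults, with 4.56 in adults and 14.6 at P1. Neighbours in this order, such as Spry2 and Fgf1 in adults (13.4 to 69.7 and 9.36 to 61.5), overlapped almost wholly in range.

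Levels also followed the replicate set within an age. Relative to set 1, 9 of the 10 genes were lower in set 3, 9 in set 6, 6 in set S and 4 in set 4, and none passed in set 2. The same terms called 53.0% of all genes in set 3, 34.3% in set 6, 32.6% in set S, 17.9% in set 4 and 0 in set 2. For Fgfr3 the set 6 minus set 1 difference was -2.83 ± 0.23 (adjusted p = 5.33e-12), which is larger than its difference between adults and P1. The mature astrocyte marker level moved with the sets, with medians of 9.08 in set 1, 8.20 in set 2, 6.89 in set 3, 7.61 in set 4, 6.30 in set 6 and 6.43 in set S. The neuronal level moved the other way, at 6.76, 7.18, 8.79, 7.36, 8.71 and 8.87. The part of cell make-up in these set differences was not tested.

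Among libraries of the same group and after the replicate set was taken out, many pairs of the genes varied together, though fewer did so by rank. P1 female 4, the lowest P1 library in Fgfr1, Fgfr2, Fgf1, Fgf2, Spry1 and Etv4, is among these libraries. Its part alone in the correlations was not tested. Over the 53 libraries, 31 of the 45 pairs of members were correlated (Pearson's r on residual log2 CPM, permutation test with 100000 resamples, adjusted over 65 relations), 29 of them positively, and 19 passed by both r and Spearman's rho. The permutations treat the 53 residuals as free observations, although terms for group and replicate set had been fitted. These p-values, and those for the marker levels below, are therefore too small, and pairs near the threshold may not hold. How many pairs of other genes would pass was not tested, so these counts cannot be read as particular to the members. The closest pair was Fgf1 and Etv4 (r = 0.93 with an adjusted permutation p of 3.42e-05, rho = 0.82 with 5.42e-05), and r was 0.84 without the 2 libraries farthest from the median of Fgf1. Fgf1 also followed Fgfr2 (r = 0.88, rho = 0.78, 0.76 without 2 libraries), and Spry1 followed Etv4 (r = 0.89, rho = 0.71, 0.72 without 2 libraries), with the same adjusted permutation p-values, which rest on 1e-05, the smallest p that these permutations can give. The pair of ETS factors, Etv4 and Etv5, was more loosely related (r = 0.57, rho = 0.44, adjusted permutation p = 5.65e-05 for r, 0.53 without 2 libraries). Other values of r were smaller without 2 libraries or by rank. Fgf1 with Fgf2 had r = 0.61 (rho = 0.35, adjusted permutation p = 0.000255 for r) and 0.24 without 2 libraries, and Fgfr1 with Fgf2 had r = 0.58 (rho = 0.38, adjusted permutation p = 0.000255 for r) and 0.33 without them. Fgfr1 with Spry1 had r = 0.63 (adjusted permutation p = 0.00025) and 0.34 without 2 libraries, and did not pass by rho (0.25, adjusted permutation p = 0.110). Spry2 and Spry1 were not correlated past the threshold (r = 0.17, rho = 0.10, adjusted permutation p = 0.229). Spry4 passed with no other member by rho, and its 2 passing values of r, with Fgf2 (r = -0.34, adjusted permutation p = 0.0217) and Etv4 (r = -0.30, adjusted permutation p = 0.0425), were -0.17 and -0.02 without 2 libraries, so both rest on those libraries.

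The same residuals followed the cell markers of each library. The mature astrocyte level passed with 9 of 10 genes by r and 6 by rho, most closely Fgf1 (r = 0.78, rho = 0.75, 0.75 without 2 libraries) and Fgfr1 (r = 0.73, rho = 0.69, 0.65 without 2 libraries), each with an adjusted permutation p of 3.42e-05 for r. The neuronal level passed with 8 genes by r and 6 by rho, all negatively, with r = -0.62 for Etv4 (rho = -0.58, adjusted permutation p = 3.42e-05 for r, -0.49 without 2 libraries) and r = -0.61 for Spry1 (rho = -0.62, adjusted permutation p = 5.65e-05 for r, -0.58 without 2 libraries). Spry4 passed with neither, at r = 0.0071 for the astrocyte level (adjusted permutation p = 0.959) and r = 0.09 for the neuronal level (adjusted permutation p = 0.517). The part of these marker levels in the correlations among the genes was not tested, nor was the share of other genes that follow these levels.

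**Figure D4:**
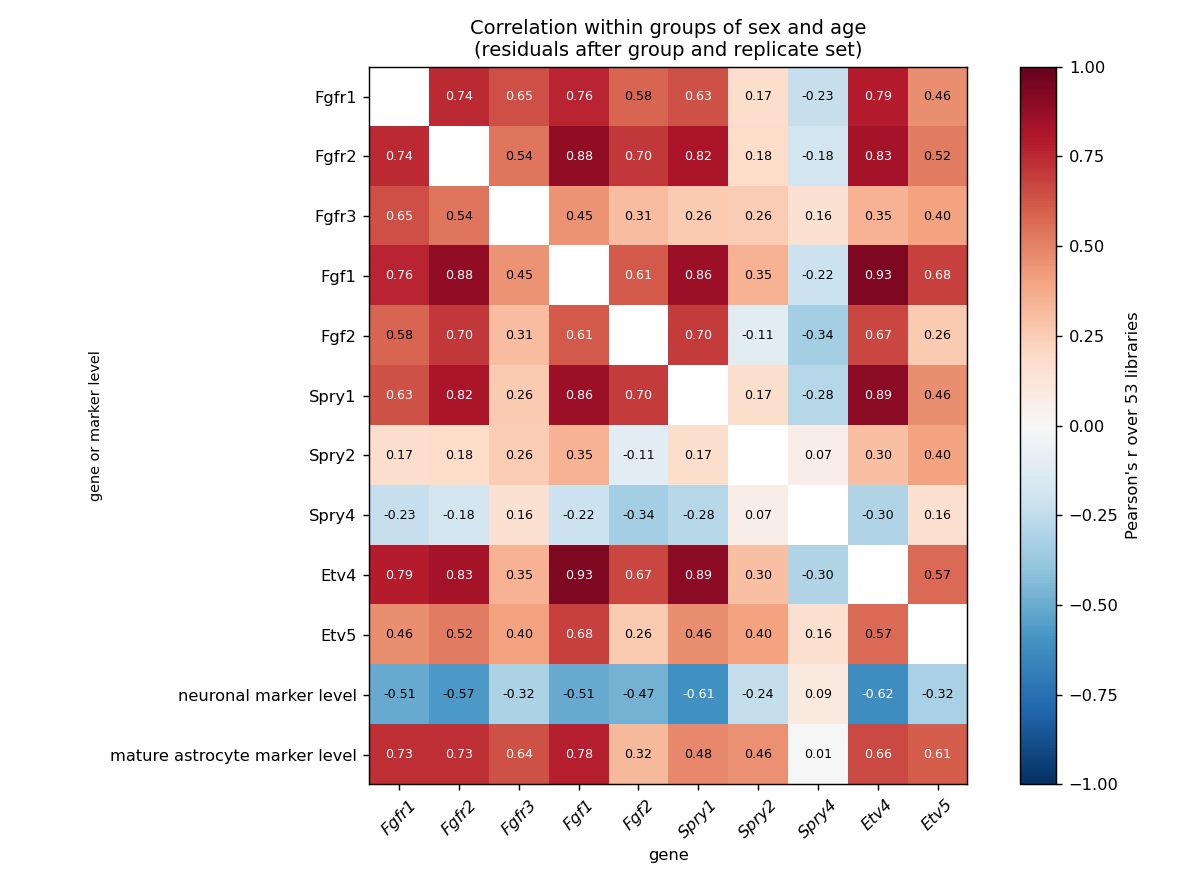
Pearson's r between residuals of log2 CPM (after group and replicate set) over 53 libraries, for the 10 genes (columns) against each other and against the neuronal and mature astrocyte marker levels (rows). Values among Fgfr1, Fgfr2, Fgf1, Fgf2, Spry1 and Etv4 run from 0.58 to 0.93, and the lower ones shrink without 2 libraries, to 0.24 for Fgf1 with Fgf2. By rho they run from 0.25 (Fgfr1 with Spry1) to 0.82 (Fgf1 with Etv4). P1 female 4 was the lowest P1 library in each of these genes. Pairs with other genes reach similar values, such as Fgfr1 with Fgfr3 (r = 0.65, rho = 0.60) and Fgf1 with Etv5 (r = 0.68, rho = 0.59).

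Over all 53 libraries and ages, the most similar profile among 12119 other genes of at least 5 CPM on average was found for each member by Pearson's r of log2 CPM. Fgf1 was closest to Efhd1 (r = 0.97) and Plekho2 (r = 0.96). Fgfr3 was closest to Tspan7 and Cpe (r = 0.95 each), and Fgfr2 to the glutamate transporter gene Slc1a3 (r = 0.93) and Paqr8 (r = 0.92). Fgfr1 was closest to Wscd1 and Srebf1 (r = 0.93 each). Spry1 was closest to Sox3 (r = 0.92) and Tcf7 (r = 0.90), and Etv4 to Dennd2a and Bcl2l12 (r = 0.93 each). Fgf2 was closest to Tmbim1 (r = 0.89) and Lgi4 (r = 0.87), and Spry2 to 2810468N07Rik and Ctdsp1 (r = 0.92 each). Etv5 (Snx33, r = 0.80, and Plcd4, r = 0.77) and Spry4 (Cacul1, r = 0.72, and Gnpda1, r = 0.71) had no neighbour as close. These values describe libraries that share ages and replicate sets, and no p is given.

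The labelled sexes were compared for each gene over all ages. None of the 10 genes passed female minus male (edgeR), with no unadjusted p under 0.05, and DESeq2 and limma voom called none of them either. The same test called 6 of all genes, 0.0284%, all of them lower in females. The estimates ran from -0.23 ± 0.27 for Fgf2 to 0.25 ± 0.14 for Spry4. No member passed the interaction of sex and age, in which edgeR called 0 of all genes, with 778 at an unadjusted p under 0.05, while DESeq2 called 8. The lowest unadjusted p among the members was 0.0738 for Spry4, whose adult minus P1 difference was -0.48 ± 0.35 in females and 0.84 ± 0.33 in males. The female value leans on P1 female 4 and P1 female 1, with 60.0 and 37.3 CPM of Spry4. P1 female 3 and P1 female 6 had 12.9 and 11.5 CPM. Without the 7 libraries whose sex-linked transcripts went against the label, edgeR again called none of the 10 genes in either test. Female libraries with some Y-linked transcripts below Xist stayed in that fit.

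The other genes of the pathway were counted by the same adult minus P1 test. Of 16 other FGF ligands 9 were measured, and 3 of these were higher, 1 was lower and 5 did not pass. Fgf9, a glial mitogen, was at 8.13 to 37.6 CPM in adults and 0 to 9.63 CPM at P1 (1.71 ± 0.37, adjusted p = 0.000245). Fgf22 was scarce, at no more than 3.21 CPM in adults and 0.405 CPM at P1 (3.17 ± 0.67, adjusted p = 0.000168). Fgf15, a ligand of the embryonic brain, had no count in any adult library and 0 to 7.19 CPM at P1. Of the 4 FGF homologous factors, which are intracellular partners of sodium channels, Fgf12 (0.91 ± 0.14, adjusted p = 1.31e-06) and Fgf14 (1.00 ± 0.33, adjusted p = 0.0147) were higher in adults and Fgf13 was lower (-0.94 ± 0.16, adjusted p = 7.42e-06).

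Other receptors and co-receptors were higher in 3 of 7 cases and lower in 1. Flrt1, a membrane protein that binds FGF receptors, was at 27.1 CPM in the median adult and 7.44 CPM in the median P1 library (1.89 ± 0.29, adjusted p = 1.44e-06). Its relative Flrt3 was at 8.13 CPM in adults and 13.9 CPM at P1 (-1.20 ± 0.29, adjusted p = 0.000867). Kl, which encodes the co-receptor Klotho, was at 1.22 CPM in adults and 0.0915 CPM at P1 (3.63 ± 0.93, adjusted p = 0.00161). Among 12 heparan sulfate enzymes and carriers, 7 were lower and 1 was higher. The 1 higher was the carrier Sdc4, at 106 CPM in the median adult and 5.63 CPM in the median P1 library (3.44 ± 0.39, adjusted p = 2.49e-09). Its relative Sdc3 was lower (-1.33 ± 0.22, adjusted p = 4.53e-06), as was Gpc1 (-0.88 ± 0.23, adjusted p = 0.00172). The list had a median difference of -0.62.

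Of 19 adaptors and kinases between receptor and ERK, 13 did not pass, 2 were higher and 4 were lower, and the median was 0.02. The kinase gene Map2k1 was higher in adults (2.11 ± 0.33, adjusted p = 1.58e-06) and Nras was lower (-1.31 ± 0.15, adjusted p = 1.98e-09). Of 12 other feedback inhibitors, 5 were higher, 2 were lower and 5 did not pass. Dusp6, the phosphatase of ERK and a common FGF readout, was at 55.2 to 145 CPM in adults and 21.2 to 83.7 CPM at P1 (1.17 ± 0.19, adjusted p = 4.25e-06). Spred2 was also higher (0.97 ± 0.18, adjusted p = 2.36e-05) and Rasa1 was lower (-0.90 ± 0.18, adjusted p = 5.74e-05). Of 13 other ERK responsive genes, 7 were higher and 1 was lower. Junb (3.47 ± 0.29, adjusted p = 1.68e-12) and Egr1 (2.08 ± 0.38, adjusted p = 2.36e-05), immediate early genes, were higher in adults, whereas Myc was lower (-2.75 ± 0.29, adjusted p = 2.39e-10). Set against the 41.3% of all genes called, these counts are a description of each list.

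**Figure D5:**
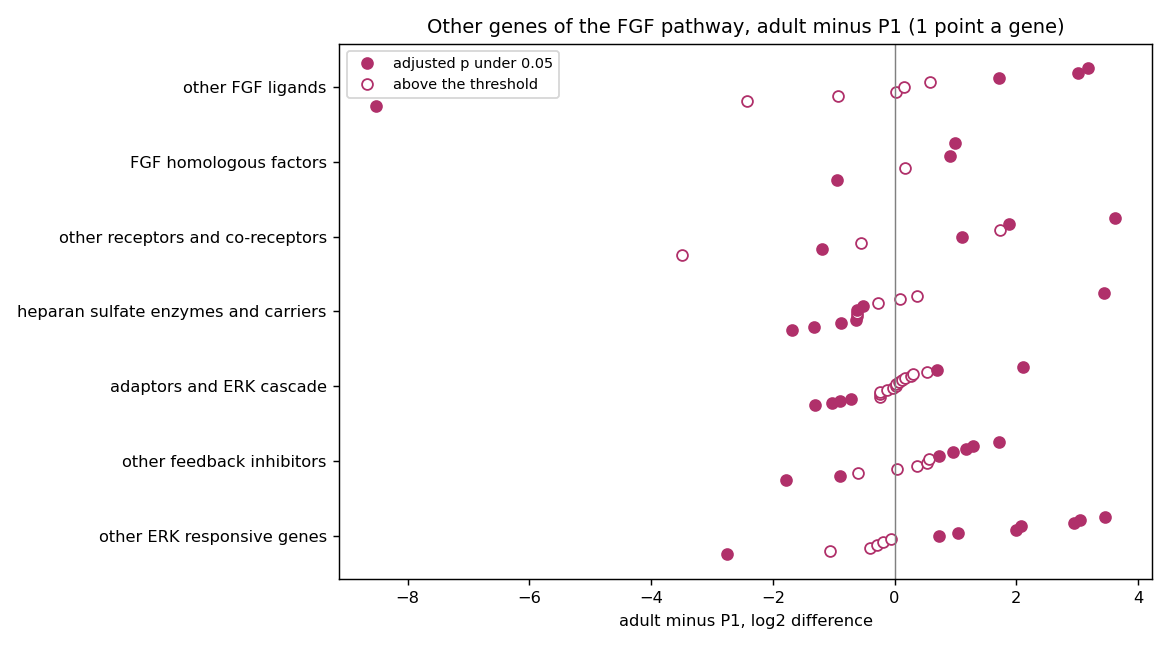
Adult minus P1 difference (log2, horizontal axis) of the other FGF pathway genes by list, 1 point for each gene, filled where the adjusted p was under 0.05. Heparan sulfate genes lie mostly below 0 apart from Sdc4 at 3.44, and the far left point is Fgf15, which had no count in adults and whose plotted value is no measure of size.

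Markers of other cells moved over the same ages as the 10 genes. Between adults and P1, all 8 oligodendrocyte markers were higher (median 3.41), 8 of 12 neuronal markers were higher and 2 lower (median 1.32), 3 of 6 microglial markers were higher, and all 6 cell cycle markers were lower (median -4.48). Oligodendrocyte progenitor markers were higher in 2 and lower in 2 of 6 cases, and endothelial and mural markers lower in 2 of 6. All 12 astrocyte and all 12 neuronal markers were counted in every library, while Opalin of the oligodendrocyte list had no count in 10 libraries and no marker was at 0 in all of them. The part of these cells in the differences of the 10 genes was not tested.

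Some of the 10 genes share exon sequence with others, and the strand setting of the counting is not given in the sources used here, although the libraries were made with a strand-specific kit. Fgfr3 shares 998 of 7158 exon bases with G630022F23Rik on the opposite strand, which was itself higher in adults at far lower levels (a median of 1.42 CPM in adults and 0.393 CPM at P1). Spry1 shares 710 of 2906 bases with Gm42922 and Fgf2 shares 640 of 6782 bases with Nudt6, both on the opposite strand and neither past the threshold. Fgfr2 shares 314 of 10328 bases with Ctbp2 on the same strand, which was lower in adults (-0.74 ± 0.30, adjusted p = 0.0421). Counts of these pairs are uncertain to the extent that reads in the shared bases were given to either gene.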

How the data were processed

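The deposited file holds raw read counts per gene for 53 libraries, 1 for each animal. Per the submitters' processing notes, the authors used CASAVA, HISAT2, SAMtools and featureCounts on GRCm38.p5. Strand setting and annotation of the counting were not given in the sources used here. Per the labels, 4 animals, all P7, were sequenced in 2 runs and have 1 column each. Another 4 P7 animals, labelled S, were treated as a replicate set of their own. The 10 genes and all gene lists were chosen with earlier results of these data known.

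From the counts, edgeR 4.0.16 in R 4.3.3 was fitted once to all 21118 genes (TMM, robust quasi-likelihood, group of sex and age with 12 levels, replicate set with 6 levels). Contrasts average the labelled sexes, p-values were adjusted by Benjamini-Hochberg over all genes, and the threshold was 0.05. The filter on low counts (filterByExpr) removed 0 genes, and the lowest row total in the deposited table was 50. Standard errors were taken from the difference and its F value, and intervals are 2 standard errors on either side. The method was tested on simulated counts. Every member is named, of each list up to 3 genes with the smallest adjusted p over the 6 ages, and for each member the 2 most similar genes of at least 5 CPM. A gene that this rule names is not reported here. Gene positions and exon lengths come from GENCODE M21, which held 21033 of the gene IDs, and promoters from RefSeq on GRCm38.p6. DESeq2 1.42.0, limma 3.58.1 (voom), other scalings, filters, covariates and omitted libraries were alternatives. The fits that left out each library in turn kept the trend of the spread (dispersion) from the fit to all 53 libraries. That trend was not estimated anew for them. With total counts of 14768178 to 48541139, the scarcest member by median, Fgf2, rests on the fewest counts.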

Additional observations from a re-analysis of the deposited data

Results flagged for a closer look

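In 50 groups of 1 gene at 1 age with few enough libraries to test, 3 had a library whose distance from its nearest neighbour was large for the range of its group, where chance gives about 1 in 20. At P1, P1 female 1 had 85.9 CPM of Fgf1, with the next library at 21.2 CPM. The same library had 154 CPM of Spry2, with the next at 65.2 CPM. Among adults, adult male 4 had 31.0 CPM of Spry1, with the next at 17.6 CPM.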

How the results depend on the processing

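The directions of Fgfr1, Fgfr2, Fgfr3, Fgf1, Fgf2, Spry2, Spry4 and Etv5 between adults and P1 were the same under every alternative run. Spry1 reversed to 0.13 and Etv4 to 1.60 with the neuronal marker level as a covariate, and Etv4 to 0.31 with limma voom; the cause was not tested. Without the replicate block, 4 of the 10 genes passed over all ages, 4 between adults and P1, and 1 among the steps, against 7, 7 and 2 with it, while 60 against 48 of the 65 relations among the genes and the marker levels passed by r. Libraries of the same replicate set in different groups mostly deviated together (median r = 0.61, 214 of 223 pairs over 0.1). Those of different sets did so less often (median r = -0.17, 334 of 1055 pairs over 0.1, the highest at 0.84). This was seen in the data and is not stated by the design. Deviations were taken from the mean of each group, so sets that lie above it are offset by sets below it. The steps gave 4 calls without the 3 libraries with the fewest genes, 4 with S1 placed in set 1 and S2 in set 2, 4 without P1 female 1 and P1 female 4 (chosen after seeing the data), and 1 without the libraries of the other description letter. Over all genes these fits gave 3579, 7880, 3155 and 365 step calls in that order, against 1384 in the main fit. The counts of members are read against those. Leaving out each library in turn gave 1 to 4 calls among the steps, 6 to 8 over all ages and between adults and P1, and 0 in both sex tests. Over all genes those fits gave 884 to 3031 step calls. They gave 8621 to 10236 over all ages and 8000 to 9064 between adults and P1. Over all genes, edgeR called 9190 over the ages (6135 without the replicate block, 5837 with the neuronal covariate). Between adults and P1 it called 8718 (5725 without the replicate block, 5812 with the neuronal covariate). The steps gave 1413 calls over all genes without the replicate block, against 1384 with it. For sex, DESeq2 called 101 where edgeR called 6. Leaving out P7 male 6 and P14 male 6, or the 7 libraries with sex-linked transcripts of the other sex, was also chosen after seeing the data and moved no count of members called. Over all genes those fits gave 2207 and 686 step calls. Depth limits the scarce genes: Fgf2 had a median of 1.79 CPM at P1, and its adult minus P1 difference ran from 1.82 to 2.18 over the libraries left out.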
